A study of Amphimedon queenslandica and Mnemiopsis leidyi and Nematostella vectensis with 36 samples.

Results

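The binding of the GLI and EGR DNA-binding domains of the sponge Amphimedon queenslandica to the animal's own DNA was compared on native and on amplified DNA. The members were all peaks in the 4 lists of the GLI and EGR domains, chosen by construct name: 32856 of the 120443 peaks in the 16 peak lists used here, out of 36 samples in the series. The assay was DAP-seq, in which a transcription factor made in vitro with a HaloTag, a protein handle for affinity capture, is incubated with purified genomic DNA fragments, and the captured fragments are sequenced. DNA came from swimming larvae at 0 h, from animals collected at Heron Island, and was sheared to a mean of 200 bp. In the native arm (DAP-seq) adapter-ligated genomic DNA went straight to the protein. In the amplified arm (ampDAP-seq) the same kind of fragments were first copied by 11 cycles of PCR, which leaves DNA without its methylation, and all captured DNA was amplified for 20 cycles. Both factors were tested only as DNA-binding domains (AquGLI and AquEGR domains fused to HaloTag), so the comparison holds no full-length GLI or EGR protein, and no chromatin or partner protein was present.

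GLI and EGR proteins both read DNA through zinc fingers, small folds that each hold a zinc ion and touch a few bases. In animals such as flies and vertebrates, GLI-family proteins are the transcription factors at the end of the Hedgehog signalling pathway, where they activate or repress the genes that answer the signal. EGR proteins, named for the early growth response, are made quickly after a cell is stimulated, and in vertebrates they bind GC-rich sites. SP factors, a further zinc-finger family that binds GC-rich sites in vertebrates, were tested in the same series under the name SP41, beside YY1 and NRF.

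Each construct and kind of DNA had 1 library, so no difference between factors or kinds of DNA could be tested against replicates. Intervals given with percentages are 95% Wilson intervals and cover counting error only. The 4 libraries held 2161903 to 2886198 usable fragments, within the 2161903 to 3168602 of all 16 libraries. The authors called each library's peaks against a HaloTag-alone control, 1 for native DNA (2626764 usable fragments) and 1 for amplified DNA (2865511). The GLI and EGR lists of 1 kind of DNA therefore share their control. Positions below are those of the lists, on numbered contigs and counted from 1. The sources used here do not name the genome build, and no gene annotation was used.

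On native DNA 8828 peaks were called for the GLI domain and 12855 for the EGR domain. The amplified lists held 4837 and 6336. Fold enrichment, the authors' ratio of the fragment pileup at the peak summit to the background expected from the control, had a median of 3.77 for GLI and 5.39 for EGR on native DNA. On amplified DNA the medians were 3.69 and 5.07. EGR lists were thus longer and more enriched on both kinds of DNA, and the strongest EGR peak reached a fold of 30.9 on native DNA against 10.8 for GLI. A fold of at least 5 was reached by 14.1% of native GLI peaks and by 56.8% of native EGR peaks, and on amplified DNA by 15.2% and 50.8%. Because the lists differ in length and strength, each overlap is given as a share of both lists.

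Most peaks of either domain did not overlap a peak of the other. A peak was classed as shared when it overlapped a peak of the other factor on the same kind of DNA by at least 1 bp, and otherwise as GLI only or EGR only. On native DNA 2510 of 8828 GLI peaks were shared, 28.4% (27.5 to 29.4), and 2508 of 12855 EGR peaks, 19.5% (18.8 to 20.2). The remaining 6318 peaks were GLI only and 10347 were EGR only. As background, 30.8% of the 38017 peaks in the 6 native lists of SP41, YY1 and NRF overlapped a native EGR peak and 15.1% a native GLI peak. GLI peaks thus met EGR about as often as the pooled peaks of these other factors did. EGR peaks met GLI somewhat more often than the pool did. The background was uneven: native EGR met 55.0 and 46.3% of the peaks in the full-length and domain lists of SP41, but 10.9 and 11.2% in those of YY1. Native GLI met 20.9 and 20.4% in the SP41 lists, but 7.82 and 9.66% in those of YY1. The 19.5% of EGR peaks that met GLI was thus slightly below the SP41 shares and above those of YY1 and NRF. On amplified DNA 827 of 4837 GLI peaks were shared, 17.1% (16.1 to 18.2), and 826 of 6336 EGR peaks, 13.0% (12.2 to 13.9), with 4010 GLI only and 5510 EGR only. There the pooled background over 49570 peaks was 16.3% for EGR and 8.001% for GLI. These were again close to the share of GLI peaks that met EGR and below the share of EGR peaks that met GLI. Amplified GLI met 15.97% of the NRF domain peaks, above that EGR share, and less than that EGR share in every other list of these factors. The shared share was lower on amplified DNA in both lists, and the amplified lists were also shorter. When all 4 lists were cut to their strongest 4837 peaks, 18.1% of GLI and 18.0% of EGR peaks were shared on native DNA and 13.6% of each on amplified DNA.

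**Figure D1:**
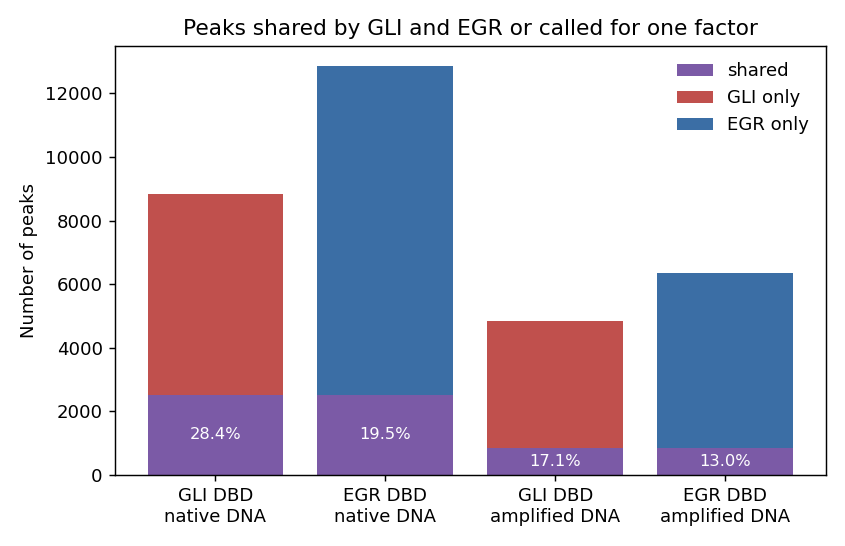
Number of peaks (vertical axis) in the 4 lists, with shared peaks at the base of each bar and peaks of 1 factor above. The printed percentages are the shared share of each list, from 13.0% of amplified EGR peaks to 28.4% of native GLI peaks.

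In shared pairs the overlap usually covered most of the shorter peak, and touching at the edges was rare. The 2529 overlapping pairs on native DNA overlapped by a median of 165 bp, 96.9% of the shorter peak, and the 827 pairs on amplified DNA by 153 bp, 99.3% of the shorter peak. An overlap of 10 bp or less occurred in 11 native and 2 amplified pairs. The overlap reached 50% of both peaks for 1666 of the 2510 native and 635 of the 827 amplified shared GLI peaks. The pairing was nearly 1 to 1, since 19 native GLI peaks met more than 1 EGR peak and 20 native EGR peaks met more than 1 GLI peak, against 0 and 1 on amplified DNA. Few single-factor peaks ended just short of the other factor: 8 of the 6318 native GLI only peaks and 3 of the 4010 amplified ones ended within 10 bp of an EGR peak. The median gap from a GLI only peak to the nearest EGR peak on its contig was 2734 bp on native and 5799 bp on amplified DNA. An EGR peak lay within 500 bp of 12.2% of native and 6.11% of amplified GLI only peaks. For EGR only peaks the gap to the nearest GLI peak was 3471.5 and 6419 bp, and 9.17% and 4.85% had one within 500 bp. A contig without any peak of the other factor carried 630 native GLI only and 1769 native EGR only peaks. Gaps and neighbour shares depend on how many peaks the other list holds, and the amplified lists were shorter. Their values for the peaks of other factors were not computed, so they do not show whether GLI and EGR peaks lie nearer than peaks in general.

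Sharing was spread over many contigs. On native DNA shared GLI peaks lay on 715 of the 1080 contigs that held peaks of both factors, and contig 13514 held the most, 48 peaks or 1.91%. On amplified DNA they lay on 408 of 737 such contigs, with 18 on contig 13522.

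Within shared peaks the summits, the positions of highest pileup, were usually close but seldom at the same base. On native DNA the median distance from a GLI summit to the nearest EGR summit was 40 bp, with quartiles of 13 and 109 bp and a maximum of 1877 bp. Summits were within 10 bp in 21.5% of shared peaks, within 50 bp in 56.9% and within 100 bp in 73.1%, and 57 pairs had the same summit base. For amplified DNA it was 27 bp, with quartiles of 10.5 and 63.5 bp, and 68.1% lay within 50 bp. The spread of a summit called for the same factor in separate libraries, on native and on amplified DNA, gives the scale for these distances. It was 19 bp for GLI over 2246 peaks, with 77.6% within 50 bp, and 11 bp for EGR over 5375 peaks, with 90.3% within 50 bp. GLI and EGR summits on the same DNA were thus farther apart than the summits of either factor across the kinds of DNA. The own-factor distance was about the same in shared and single-factor peaks: in native peaks shared with the other factor and found again on amplified DNA it was 17 bp for GLI and 10 bp for EGR, against 19 and 11 bp in peaks of 1 factor. Pairs that share no control gave similar values, with a median of 33 bp from native GLI to amplified EGR summits and 29 bp from amplified GLI to native EGR summits.

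**Figure D2:**
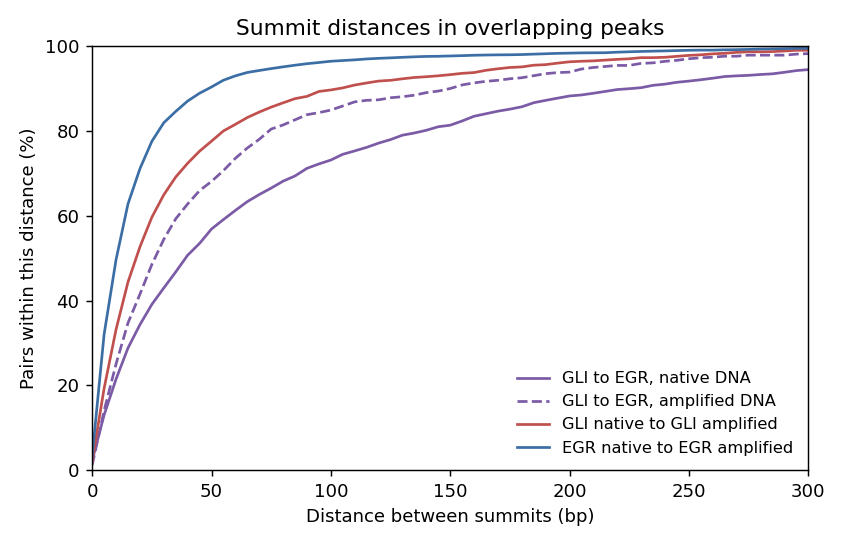
Percentage of overlapping peak pairs (vertical axis) whose summits lay within a given distance in bp (horizontal axis, up to 300 bp), for GLI against EGR on each kind of DNA and for each factor across kinds of DNA. The EGR curve across kinds of DNA rises first (median 11 bp), then GLI across kinds of DNA (19 bp), then GLI to EGR on amplified (27 bp) and native DNA (40 bp).

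The distance was smaller in strong and in narrow peaks. Where both native peaks were in the strongest quartile of their list by −log10 q, the authors' peak score for significance, the median was 23 bp over 381 peaks, and where either was in the weakest quartile it was 56 bp over 815. The same groups on amplified DNA had medians of 18 bp over 106 peaks and 38 bp over 307. Where both native peaks were at most 250 bp wide the median was 25 bp, and where at least 1 was wider it was 57 bp. On amplified DNA these were 22 and 36 bp. Because a summit lies inside its peak, width itself limits the distance in overlapping peaks. The native maximum was 289 bp in the narrow group and 1877 bp in the wide one, so part of this difference is set by the grouping. In 1856 of the 2510 native shared GLI peaks each summit fell inside the other peak, a condition that also limits the distance, and there the median was 23 bp. In these strong, narrow or better placed groups the median was above the 19 bp of GLI across the kinds of DNA, except for the strongest amplified pairs at 18 bp. It was above the 11 bp of EGR in each of them. Those own-factor values cover peaks of any strength and width and were not computed for the same groups, so the comparison is not matched.

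Shared peaks were wider than peaks of 1 factor in all 4 lists. On native DNA the median width of shared GLI peaks was 212 bp (quartiles 169 to 290) and of GLI only peaks 183 bp (158 to 237). Shared EGR peaks had a median of 233 bp (185 to 330) and EGR only peaks 194 bp (163 to 245). The amplified medians were 180 against 167 bp for GLI and 205.5 against 178 bp for EGR. The quartile ranges of shared and single-factor peaks overlapped in every list, and a wider peak has more room to overlap another. By width quartile, from narrow to wide, 20.6, 24.0, 30.9 and 38.2% of native GLI peaks were shared, and 11.0, 15.3, 20.7 and 31.0% of native EGR peaks. In the amplified lists they rose from 13.9 to 22.3% for GLI and from 7.39 to 20.4% for EGR.

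Shared EGR peaks were stronger than EGR only peaks, while the fold of the GLI classes differed little. Shared native EGR peaks had a median fold of 6.07 against 5.32 for EGR only, and a median −log10 q of 15.8 against 10.2. Shared native GLI peaks had a median fold of 3.81 against 3.76 for GLI only, and a median −log10 q of 6.62 against 5.80. The pileup at the summit was 27 against 23 fragments in these GLI classes. Among amplified peaks the median fold was 5.63 for shared against 4.99 for EGR only, and 3.64 for shared against 3.69 for GLI only. Differences of median fold are given with a range from the 95% order-statistic intervals of both medians over the peaks of 1 library. The difference was 0.745 (0.603 to 0.959) for native and 0.639 (0.241 to 1.00) for amplified EGR. For GLI it was 0.0568 (-0.0359 to 0.136) on native and -0.0502 (-0.175 to 0.103) on amplified DNA, ranges that include 0. The background implied by the lists, pileup divided by fold, was also higher in shared than in single-factor peaks, with native medians of 6.81 against 6.20 fragments for GLI and 5.74 against 4.73 for EGR. Its part in the sharing was not tested.

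By strength quartile, from weak to strong, 22.3, 26.9, 28.0 and 36.5% of native GLI peaks and 13.1, 14.5, 19.1 and 31.4% of native EGR peaks were shared. The weakest and strongest amplified quartiles had 14.9 and 21.6% for GLI, and 11.0 and 19.6% for EGR. Most of the strongest peaks of either domain were still of 1 factor on amplified DNA, where 27 of the 100 strongest GLI peaks and 36 of the 100 strongest EGR peaks were shared. On native DNA these counts were 48 and 60. Width and strength both went with sharing: within the strongest quartile of native EGR peaks, 39.4% of the wider peaks were shared against 23.3% of the narrower.

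**Figure D3:**
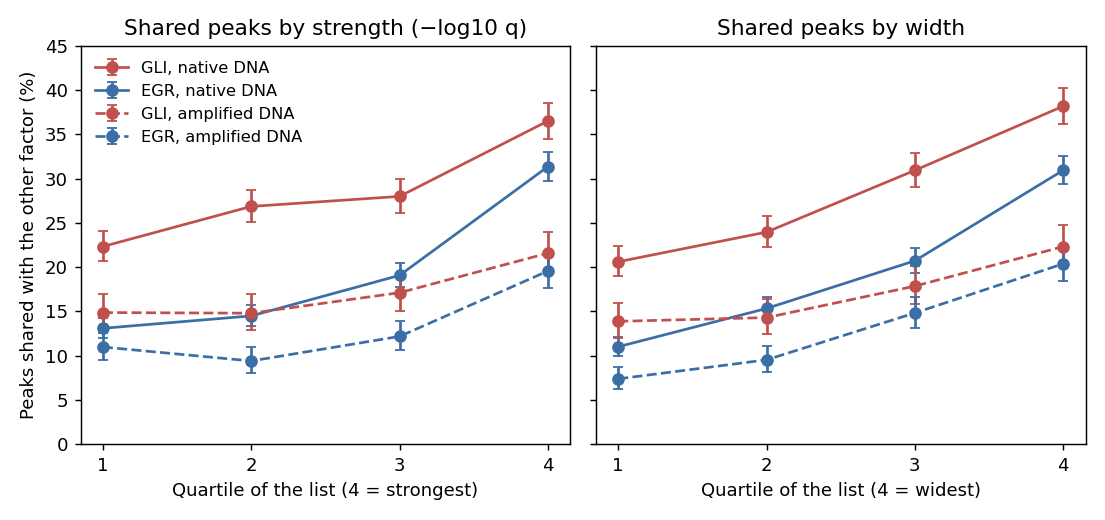
Percentage of peaks shared with the other factor (vertical axis) by quartile of −log10 q (left) and of width (right) within each list, with 95% Wilson intervals as bars. In all 4 lists the highest quartile had the largest shared share, up to 36.5% by strength and 38.2% by width in native GLI peaks.

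Native single-factor peaks that were met again on amplified DNA were mostly met in the same class, whereas native shared peaks were often met by EGR alone. A peak's state on the other kind of DNA was read from both lists there. The contrast is partly set by the definitions. A shared peak keeps its class only when both factors are found again, a single-factor peak when its own is found and the other is not. Of the 6318 native GLI only peaks, 1497 (23.7%) were GLI only on amplified DNA, 38 (0.601%) were met by both factors, 34 (0.538%) by EGR alone and 4749 (75.2%) by neither. Of the 10347 native EGR only peaks, 3825 (37.0%) were EGR only, 279 (2.70%) were met by both, 165 (1.59%) by GLI alone and 6078 (58.7%) by neither. As background, 5.88% of the peaks in the 6 native lists of SP41, YY1 and NRF overlapped an amplified GLI peak and 16.1% an amplified EGR peak. Amplified EGR was thus rare at native GLI only peaks, but the class itself leaves out every site of a native EGR peak, which the background does not. The libraries behind these values share no control.

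Native shared peaks divided differently. Of the 2510 shared GLI peaks, 445 (17.7%, 16.3 to 19.3) were met by both factors on amplified DNA, 266 (10.6%) by GLI alone, 791 (31.5%) by EGR alone and 1008 (40.2%) by neither. EGR was found again at 50.7% of shared native EGR peaks and GLI at 28.3% of shared native GLI peaks. Over single-factor peaks these shares were 39.7% for EGR and 24.3% for GLI, so the order of the factors was the same there. In the strongest native quartile the classes were close, with EGR found again at 83.7% of shared and 81.6% of EGR only peaks, and GLI at 41.7% of shared and 40.1% of GLI only peaks. In the weakest quartile EGR was found again at 9.26% (6.85 to 12.4) of shared and 12.8% (11.6 to 14.1) of EGR only peaks. Finding one factor again went with finding the other, since amplified EGR was present at 62.6% (59.0 to 66.1) of shared native GLI peaks where GLI was found again and at 44.0% (41.7 to 46.3) where it was not.

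In the other direction, from amplified to native DNA, the class was kept more often. Of the 827 amplified shared GLI peaks, 434 (52.5%) were met by both factors on native DNA, 40 (4.84%) by GLI alone, 272 (32.9%) by EGR alone and 81 (9.79%) by neither. Of the 4010 amplified GLI only peaks, 1520 (37.9%) kept their class, 258 (6.43%) were met by both factors and 172 (4.29%) by EGR alone. Of the 5510 amplified EGR only peaks, 3939 (71.5%) kept it, 803 (14.6%) were met by both and 32 (0.581%) by GLI alone. The background over the amplified SP41, YY1 and NRF peaks was 12.1% for native GLI and 27.2% for native EGR. The native lists are longer, which gives each amplified peak more peaks to meet. With all lists at 4837 peaks, shared GLI peaks kept their class in 29.1% from native to amplified and 37.6% from amplified to native, GLI only peaks in 29.9 and 28.6%, and EGR only peaks in 59.7 and 58.5%. At equal length the directions were thus close for single-factor peaks, and EGR only peaks were kept more often than the other classes.

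For GLI, sharing on amplified DNA went with being found on native DNA. Native GLI was found at 57.3% of amplified shared GLI peaks and at 44.3% of GLI only peaks, and within the strongest quartile at 76.2% (70.7 to 81.0) against 60.0% (56.9 to 63.1). For EGR the shares were 86.1% in both classes, but in the weakest quartile 59.2% (51.8 to 66.2) of shared and 69.0% (66.5 to 71.4) of EGR only peaks met native EGR.

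**Figure D4:**
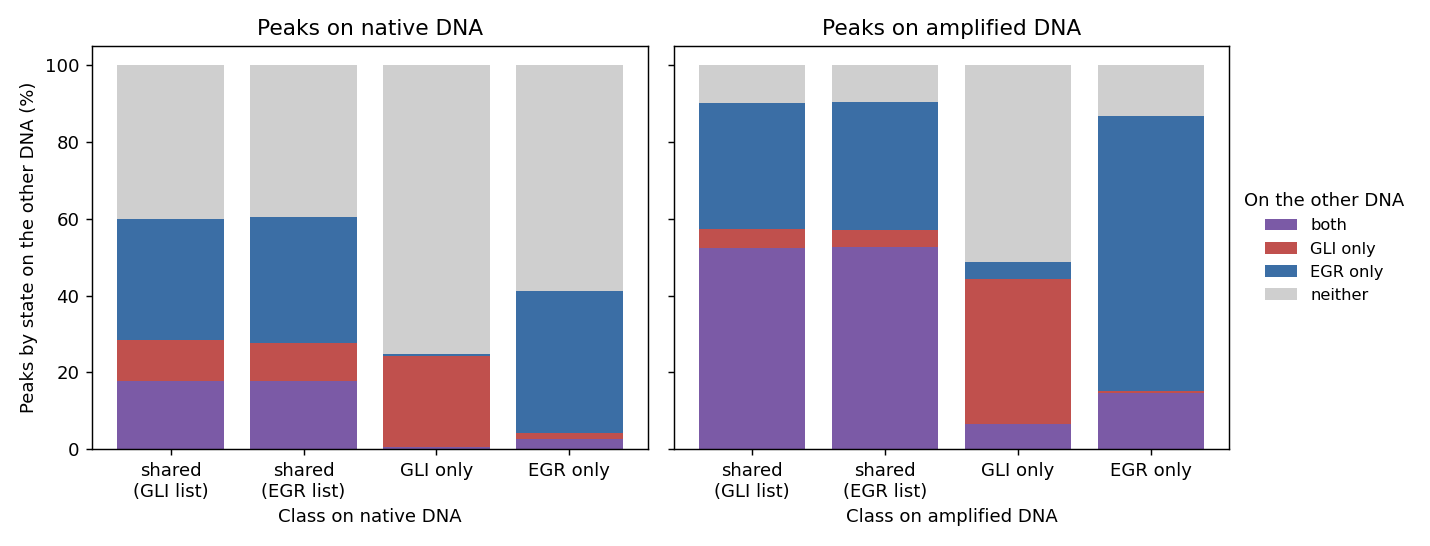
Percentage of peaks (vertical axis) by what was called at them on the other kind of DNA, for each class on native DNA (left) and on amplified DNA (right). Of native GLI only peaks 23.7% were GLI only again and 75.2% were met by neither factor, while 31.5% of native shared peaks in the GLI list were met by EGR alone.

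Merging the 4 lists gave 22007 regions, of which 13623 (61.9%) held a peak of 1 list. The largest groups were 6078 regions with native EGR alone, 4749 with native GLI alone, 3810 with EGR on both kinds of DNA, 2060 with amplified GLI alone and 1489 with GLI on both. All 4 lists met in 468 regions, 812 held both native factors and amplified EGR, and 257 held both native factors and amplified GLI. Regions called for one factor on native and only the other on amplified DNA were rare: 31 held native GLI and amplified EGR alone, and 162 held native EGR and amplified GLI alone. Of the 7342 regions with a peak on both kinds of DNA, 5767 (78.5%) had the same class on both. The classes differed: by native class it was 95.7% of 1556 GLI only, 89.7% of 4249 EGR only and 30.4% of 1537 shared regions. By amplified class it was 78.0, 81.9 and 59.9%. Region width grew with the number of lists, from a median of 173 bp for 1 list to 350.5 bp for all 4.

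Single regions show each pattern, named by a rule on their rank by −log10 q. The region of all 4 lists with the best worst rank was contig 13356, positions 51023 to 51291. The GLI peak there ranked 88 on native and 143 on amplified DNA, with pileups of 56 and 57 fragments and folds of 5.99 and 5.04. The EGR peak ranked 102 and 26, with pileups of 113 and 145 and folds of 15.2 and 15.3. The summits of the factors were 1 bp apart on native and 15 bp on amplified DNA. On contig 5978, positions 586 to 1244, they were 0 and 1 bp apart, and on contig 13185, positions 64765 to 65185, they were 13 and 2 bp apart. In these 3 regions both domains had their highest pileup at nearly the same base on both kinds of DNA, with a higher EGR than GLI fold on each. SP41 peaks also overlapped all 3 regions, and NRF and YY1 peaks the one on contig 5978, so none was met by GLI and EGR alone.

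The strongest GLI only region on both kinds of DNA was contig 12882, positions 27907 to 28251. Its GLI peak ranked 2 in both lists, with pileups of 338 and 448 fragments and folds of 5.29 and 5.31, and peaks of NRF and YY1 also overlapped it. Its implied background on native DNA, 63.9 fragments, was the highest of all native GLI only peaks, whose median was 6.20. The rank by −log10 q thus put first a site of high background, and not of the highest fold. Next came contig 11298, positions 8743 to 9007, which ranked 3 in both GLI lists, and contig 4763, positions 355 to 528, which ranked 8 and 4 and held no peak of any other factor. Of these 3 regions, only the one on contig 4763 was thus met by GLI alone. The top-ranked GLI peak of both kinds of DNA, on contig 9367, positions 22 to 499, was GLI only on amplified DNA. It too had a moderate fold for its pileup, with 322 and 467 fragments and folds of 5.61 and 5.17, and all 4 SP41 lists overlapped it. On native DNA an EGR peak of rank 3684 overlapped it with its summit 296 bp away. The strongest EGR only regions on both kinds of DNA were contig 13511, positions 472748 to 473633, with ranks 5 and 9, contig 13110, positions 13965 to 14345, with ranks 9 and 12, and contig 13489, positions 224626 to 224974, with ranks 32 and 18. All 3 were overlapped by all 4 SP41 lists. On amplified DNA the strongest EGR only peak lay on contig 5548, positions 1038 to 1270, with rank 3 there and 41 on native DNA.

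Further regions changed class between the kinds of DNA, in each case with the best-ranked region given. These are changes in what was called, and a factor that was not called may lie below the threshold of its list. On contig 13468, positions 301876 to 302372, the EGR peak ranked 3 on native and 17 on amplified DNA, while the GLI peak, of native rank 102, was not called on amplified DNA. The reverse, with EGR not called on amplified DNA, was best ranked on contig 13454, positions 73149 to 73451, where GLI ranked 274 and 651 and EGR had a native rank of 1238. On contig 13507, positions 492215 to 492450, EGR ranked 587 on native and 162 on amplified DNA. GLI was called there only on amplified DNA, at rank 29 with a fold of 10.1. On contig 12800, positions 16842 to 17305, GLI ranked 808 and 110, and EGR was called only on amplified DNA, at rank 1239. The best-ranked regions called for one factor on native and only the other on amplified DNA were much weaker. GLI at native rank 1662 and EGR at amplified rank 2128 were called on contig 13334, positions 112330 to 112707. EGR at native rank 1776 and GLI at amplified rank 1715 were called on contig 13335, positions 131047 to 131221.

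Among native pairs with both peaks in the strongest 10% of their lists, the closest was on contig 13490, positions 43786 to 44140, with 0 bp between summits at ranks 33 and 53. The farthest was on contig 13200, positions 49479 to 52314, with 1877 bp. Its EGR peak spanned 2813 bp on native DNA, and on amplified DNA the summits there were 25 bp apart. On contig 13499, positions 146125 to 146723, the farthest such pair on amplified DNA, the summits were 292 bp apart, and 289 bp on native DNA. The summits were thus far apart on both kinds of DNA at this last region, and on native DNA alone at contig 13200. SP41 peaks also overlapped the regions on contigs 13490 and 13200, and a YY1 peak the one on contig 13499.

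The classes differed most in their overlap with SP41. To avoid a shared control, each class was set against peaks of the other factors called on the other kind of DNA. Of native GLI only peaks 19.7% (18.7 to 20.7) overlapped an amplified SP41 peak, against 63.9% (62.0 to 65.8) of shared GLI peaks and 53.4% (52.4 to 54.3) of EGR only peaks. The background over native peaks of all factors other than SP41 was 33.2%. Of amplified peaks, 14.3% of GLI only, 52.8% of shared and 51.1% of EGR only peaks overlapped a native SP41 peak, with a background of 21.4%. GLI only peaks lay below these pooled backgrounds on both kinds of DNA, and shared and EGR only peaks above them. The pools include the GLI and EGR peaks themselves. EGR only peaks, with their high SP41 shares, made up 10347 of the 40455 native and 5510 of the 33338 amplified peaks. GLI only peaks leave out sites of an EGR peak by definition. A place below the pool thus does not put GLI only peaks below the peaks of YY1 and NRF. How the classes stand against YY1 and NRF peaks alone was not computed. Shared GLI peaks are by definition also sites of an EGR peak.

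The GLI difference was as large among narrow and among weaker peaks. Among native GLI peaks of at most 200 bp, 63.5% of shared and 18.0% of GLI only peaks overlapped SP41, and among those ranked in the weaker part of the list, below its middle, 64.2 and 19.1% did. In the EGR list the classes were closer: among narrow peaks of at most 200 bp, 46.7% of shared and 43.4% of EGR only native peaks overlapped SP41. The order was the other way on amplified DNA, with 40.4% of shared and 43.2% of EGR only narrow peaks overlapping native SP41.

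YY1 and NRF set the classes apart by fewer percentage points. The NRF lists are short, with 3044 peaks in all against 46650 for SP41, which keeps every NRF share small. Amplified YY1 peaks overlapped 15.5% of native GLI only, 16.5% of shared and 12.6% of EGR only peaks, with a background of 15.5% over peaks of all factors other than YY1. Amplified NRF peaks overlapped 1.41 (1.15 to 1.73), 2.51 (1.97 to 3.20) and 1.80% (1.56 to 2.07), with a background of 2.06% over peaks of all factors other than NRF. On amplified DNA the YY1 shares were 11.6, 14.6 and 11.1% with a background of 13.1%. The NRF shares there were 1.07, 0.605 (5 of 827 peaks) and 1.02% with a background of 1.16%.

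**Figure D5:**
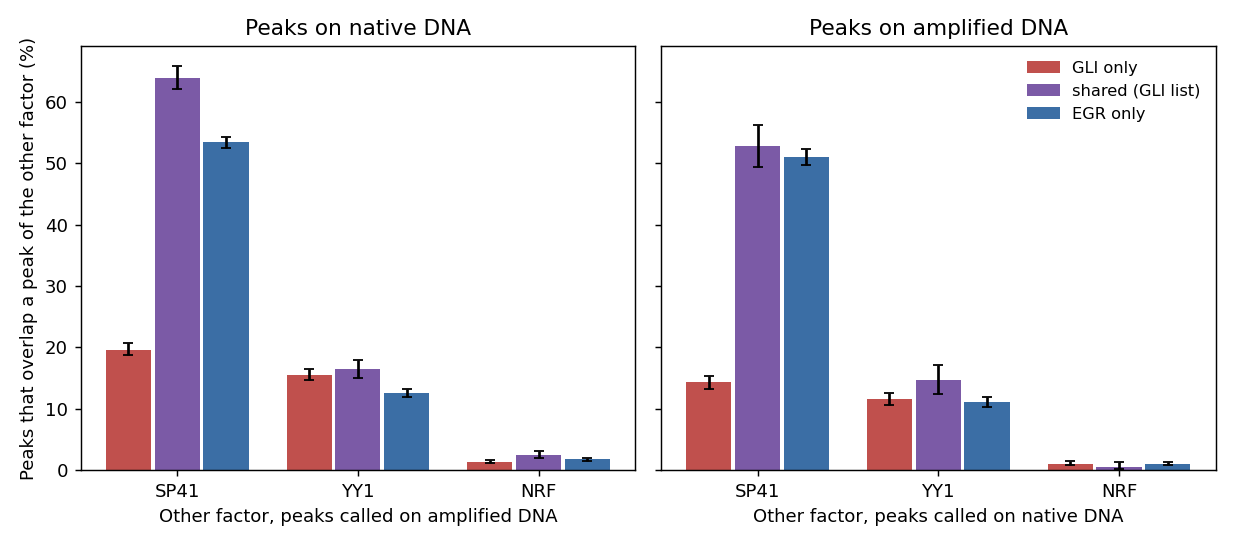
Percentage of GLI only, shared and EGR only peaks (vertical axis) that overlap a peak of SP41, YY1 or NRF called on the other kind of DNA, with 95% Wilson intervals as bars. SP41 overlapped 19.7% of native GLI only peaks against 63.9% of shared and 53.4% of EGR only peaks, while the classes lay within a few percentage points of each other for YY1 and NRF.

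Pairs of lists that share no control also overlapped. Amplified EGR peaks met 14.8% of native GLI peaks, and native GLI peaks met 20.6% of amplified EGR peaks. Native EGR peaks met 23.5% of amplified GLI peaks, and amplified GLI peaks met 8.84% of native EGR peaks. As background, amplified EGR met 16.1% of the native peaks of SP41, YY1 and NRF, and native EGR 27.2% of their amplified peaks. For native GLI the background was 12.1% of their amplified peaks, and for amplified GLI 5.88% of their native peaks. Overlap of GLI and EGR was thus present with separate control libraries as well as with a common one. GLI peaks met EGR less often than the background, and EGR peaks met GLI more often. These backgrounds pool SP41, YY1 and NRF and were not split by factor.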

How the data were processed

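The authors deposited 1 peak list per library; per the file headers, MACS 2.1.2 called peaks on paired fragments against the empty-HaloTag library, at a q cutoff of 0.05, keeping 1 duplicate and down-sampling the larger library to the smaller. The deposited pileup is a signal in fragments, not scaled to depth. The deposited fold enrichment is a ratio to the local background from the control. The authors' significance values are −log10 p and −log10 q values. Aligner settings and build are not given in the sources used here. The submitters' processing notes name fastp, Bowtie2, MACS2, Bowtie, BS-Seeker2 and CASAVA 1.8.2 without assigning roles. Gene annotation and sequence were not used here.

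Samples were grouped by construct and kind of DNA from their titles, and 20 samples without a peak list were not analysed here. Overlaps, summit distances and merged regions were computed in Python 3.11.15 with pandas 2.3.3, and Wilson intervals with statsmodels 0.14.6. The computed overlap counts equalled those of bedtools 2.31.1 in 24 of 24 checks, and planted overlaps were recovered on simulated data. No p-value was computed, because each group has 1 library. Regions were named by rank on −log10 q: the best in all 4 lists, in both lists of 1 factor, in each class change, and the closest and farthest summits. The members, lists and this rule were chosen with earlier results of these data known. The SP41 shares by width and by rank, and backgrounds that leave out a factor's own lists, were added after the shares had been seen. Alternatives were stricter peak thresholds, stricter overlap, equal list lengths, merged regions, lists of the other DNA and removal of regions of many factors.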

Additional observations from a re-analysis of the deposited data

Results flagged for a closer look

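On amplified DNA the median fold enrichment of shared minus single-factor peaks went in opposite directions in the GLI and EGR lists. It was -0.0502 in the GLI list and 0.639 in the EGR list. The range of the GLI value, -0.175 to 0.103, includes 0, and at a fold of at least 5 the GLI difference was 0.374, in the same direction as EGR. Each value comes from 1 library, and the difference between them was not tested.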

How the results depend on the processing

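Each factor and kind of DNA has 1 library, so the lists can be compared only by counting. Depth, the single controls and the lengths of the lists limit every share, and a peak absent from a list may be a peak below its threshold. No paired analysis was possible because no group has more than 1 library. The planned sequence comparison of the classes, with its alternative window, was not run because no genome of the lists' build was used here. Of 106 values recomputed under alternatives, 33 stayed within the limit set for them, which for shares is their counting error, 71 moved further and 2 reversed. All alternatives were planned, and the cause of each change was not tested.

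Shares of peaks called shared are given in the order native GLI, native EGR, amplified GLI and amplified EGR. They were 18.9, 13.0, 13.1 and 10.02% with a reciprocal overlap of 50%, 16.2, 11.1, 11.6 and 8.89% with summits within 50 bp, and 23.9, 4.08, 12.8 and 2.92% at a fold of at least 5. They were 25.3, 17.1, 13.7 and 10.3% without regions of 4 or 5 factors, and 14.8, 8.84, 23.5 and 20.6% against the other factor's list of the other DNA. At equal list length native GLI and EGR had 18.1 and 18.0% and amplified GLI 13.6%. At a −log10 q of at least 5, EGR had 14.5% on native and 9.13% on amplified DNA.

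The share of peaks that kept their class is given for shared GLI, GLI only and EGR only peaks. At a fold of at least 5 it was 4.71, 8.33 and 33.7% from native to amplified DNA and 14.9, 12.5 and 75.6% in the other direction. At equal list length it was 29.1, 29.9 and 59.7%, and 37.6, 28.6 and 58.5%. For GLI only and EGR only peaks it was 22.5 and 40.8% from native and 34.9 and 75.7% from amplified DNA at a −log10 q of at least 5, 20.2 and 33.6%, then 34.8 and 66.1%, with a reciprocal overlap of 50%, and 18.2 and 34.0%, then 31.4 and 67.5%, with summits within 50 bp. Shared peaks from amplified DNA kept it in 40.5% with the reciprocal overlap and 42.3% with summits within 50 bp. Without regions of 4 or 5 factors shared peaks kept it in 14.8 and 49.0%.

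The median summit distance on native and amplified DNA was 33 and 23 bp at a −log10 q of at least 5, 24 and 18 bp at a fold of at least 5, and 26 and 22 bp with the reciprocal overlap. Shared minus single-factor width was 22 bp for native GLI and 28 bp for native EGR with the reciprocal overlap. At a fold of at least 5 it was 24 bp for native EGR, 5 bp for amplified GLI, with a range of -7 to 22 bp that includes 0, and 17.5 bp for amplified EGR. Shared minus single-factor fold reversed for native GLI at a −log10 q of at least 5, to -0.0259, and for amplified GLI at a fold of at least 5, to 0.374. At that fold it was 0.177 for native GLI, 1.81 for native EGR and 2.12 for amplified EGR. Within 1000 bp, the other factor was found near 22.4% of native GLI only, 16.9% of native EGR only, 12.5% of amplified GLI only and 9.84% of amplified EGR only peaks.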
